A study of Mus musculus with 19 samples.

Results

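Ionocytes and Ascl3-positive microvillar cells are rare epithelial cells of the airway and the olfactory lining. They are built for ion and proton transport and carry the vacuolar proton pump (V-ATPase) and the chloride channel CFTR. The forkhead factor Foxi1 specifies them together with other pump-rich cells, such as the intercalated cells of the kidney. The V-ATPase has a cytosolic V1 sector that splits ATP and a membrane V0 sector that carries protons, and several of its subunits exist as a widespread and a restricted paralog.

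The 10 genes described here were listed by symbol as markers of these cells, with earlier results of these data known. All 10 were found among the 26221 rows of the authors' normalized table. They are the transcription factor genes Foxi1, Ascl3 and Tfcp2l1, the restricted V-ATPase subunit genes Atp6v0d2, Atp6v1b1, Atp6v1c2 and Atp6v1g3, the channel gene Cftr, and Coch and Moxd1. Bulk RNA sequencing was done on cells sorted from the noses of naive mice with the transgene Tg(RP23-268L19-EGFP)2Mik/J on the B6.Cg background. All groups carry this transgene, in which the regulatory sequences of Chat on a bacterial artificial chromosome (BAC) drive enhanced green fluorescent protein (eGFP). The labels give neither the age nor the sex of the animals.

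Dispase followed by papain released the cells, propidium iodide served to gate out dead ones, and CD45- EpCAM+ cells were sorted. The 19 libraries are eGFP+ cells of low forward and side scatter (FSClow, n = 9), eGFP+ cells of high scatter (FSChi, n = 5) and eGFP- epithelial cells (EpCAM, n = 5). Cells counted as cholinergic are thus those in which the BAC was active, and the EpCAM group holds all other epithelial cells of the digest. Nothing in the labels ties the libraries to separate animals, and p-values therefore reflect the spread between libraries alone, part of which may be technical.

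Library totals ran from 2151281 to 5439263 counts in FSClow, from 1348428 to 7477695 in FSChi and from 4137303 to 6487644 in EpCAM. The sorts were checked against markers: all 10 tuft (brush) cell markers, Chat and Trpm5 among them, were higher in FSClow and in FSChi than in EpCAM, and the 6 epithelial markers were present in all groups. Ptprc, which encodes CD45, had reads in all 9 FSClow (mean 38.8 normalized counts) and all 5 FSChi libraries (22.1) of these CD45- sorts and none in EpCAM in the count table. FSChi libraries stood apart from one another. Summed over 8 genes, sustentacular cell markers in FSChi ran from 798.7 to 11204 normalized counts, and summed over 10 genes, olfactory neuron markers ran from 951.8 to 12665. In addition, 14 of the 19 columns of the count table resembled their own single-library file most. These matched libraries are 9 of FSClow, 2 of FSChi (FSChi 1 and 2) and 3 of EpCAM. Columns FSChi 3 and FSChi 4 resembled the files labelled FSChi 4 and FSChi 5, column FSChi 5 had no matching file, and columns EpCAM 1 and EpCAM 2 each resembled the file of the other. Which of the labels are right is not known. Counts over the lists, and fold changes of most of the 10 genes in FSChi, are also given without FSChi 3 and 4, a choice made after the values were seen.

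Promoter sequences are shown for the gene pair of transcription factors that name these cells, Foxi1 and Ascl3, and for the pump gene Atp6v1b1, a known target of Foxi1 in kidney and inner ear. Each is the 250 bases before the gene's start in RefSeq (GRCm38.p6, mm10), 5′ to 3′ on the gene's strand, with matches to the searched motifs in capitals. The windows are chr11:34208090-34208339 (minus strand) for Foxi1, chr7:109731733-109731982 (minus strand) for Ascl3 and chr6:83742767-83743016 (plus strand) for Atp6v1b1.
Foxi1: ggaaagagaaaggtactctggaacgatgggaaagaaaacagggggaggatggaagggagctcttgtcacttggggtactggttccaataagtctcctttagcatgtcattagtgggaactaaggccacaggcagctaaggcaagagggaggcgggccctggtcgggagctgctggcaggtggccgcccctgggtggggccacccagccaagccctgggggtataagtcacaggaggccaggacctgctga
Ascl3: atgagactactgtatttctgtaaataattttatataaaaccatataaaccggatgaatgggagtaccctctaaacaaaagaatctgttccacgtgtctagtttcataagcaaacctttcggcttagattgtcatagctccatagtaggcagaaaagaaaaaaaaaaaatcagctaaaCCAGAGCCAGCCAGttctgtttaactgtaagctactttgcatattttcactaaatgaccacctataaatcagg
Atp6v1b1: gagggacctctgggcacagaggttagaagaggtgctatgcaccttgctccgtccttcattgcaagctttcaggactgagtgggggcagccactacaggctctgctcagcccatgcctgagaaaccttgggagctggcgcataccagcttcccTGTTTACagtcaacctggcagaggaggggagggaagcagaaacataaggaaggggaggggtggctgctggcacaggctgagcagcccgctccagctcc
The motifs searched on both strands were the forkhead letters GTAAACA and ATAAACA, the E-box CAGCTG, to which basic helix-loop-helix factors bind, and CCAGNNNNNNCCAG, a half-site pair of the grainyhead-type family of Tfcp2l1. The forkhead motifs differ in their first letter alone, so the same site cannot match both. RefSeq held a promoter window of 300 bases, 250 before and 50 after the start, for 9 of the 10 genes. GTAAACA was found in 1 of the 9, Atp6v1b1, 98 bases before the start and on the reverse strand, and in 3.65% of the 32851 promoter windows of this length that were searched. The search left out 1 chromosome, which holds none of the 10 genes. CCAGNNNNNNCCAG was found in 1 of the 9, Ascl3, 73 bases before the start, and in 3.44% of the windows searched. ATAAACA (4.60% of windows) and CAGCTG (16.3%) were in none of the 9. A match describes these letters only and is not a binding site.

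Foxi1, Ascl3, Atp6v0d2 and Atp6v1b1 were expressed in every library of the eGFP- epithelium and had a median of 0 reads in eGFP+ cells of low scatter. Coch, Cftr, Moxd1, Tfcp2l1 and Atp6v1c2 had reads in all 9 of those libraries, and Atp6v1g3 was low everywhere. Of the 9 genes that could be tested, 7 fell in FSClow against EpCAM, with log2 fold changes between -2.73 and -8.58, and none rose. In the same comparison 23.1% of all tested genes fell and 22% rose. Coch, Ascl3, Foxi1 and the pump genes Atp6v0d2 and Atp6v1b1 fell most, Cftr and Moxd1 less, and Atp6v1c2 and Tfcp2l1 did not pass the test. In FSChi, Foxi1, Ascl3, Atp6v0d2, Atp6v1b1 and Coch were again detected, and each was highest in the same 2 of the 5 libraries, FSChi 3 and 4. Within FSChi, every other tested gene was highest in these 2 libraries as well.

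**Figure D1:**
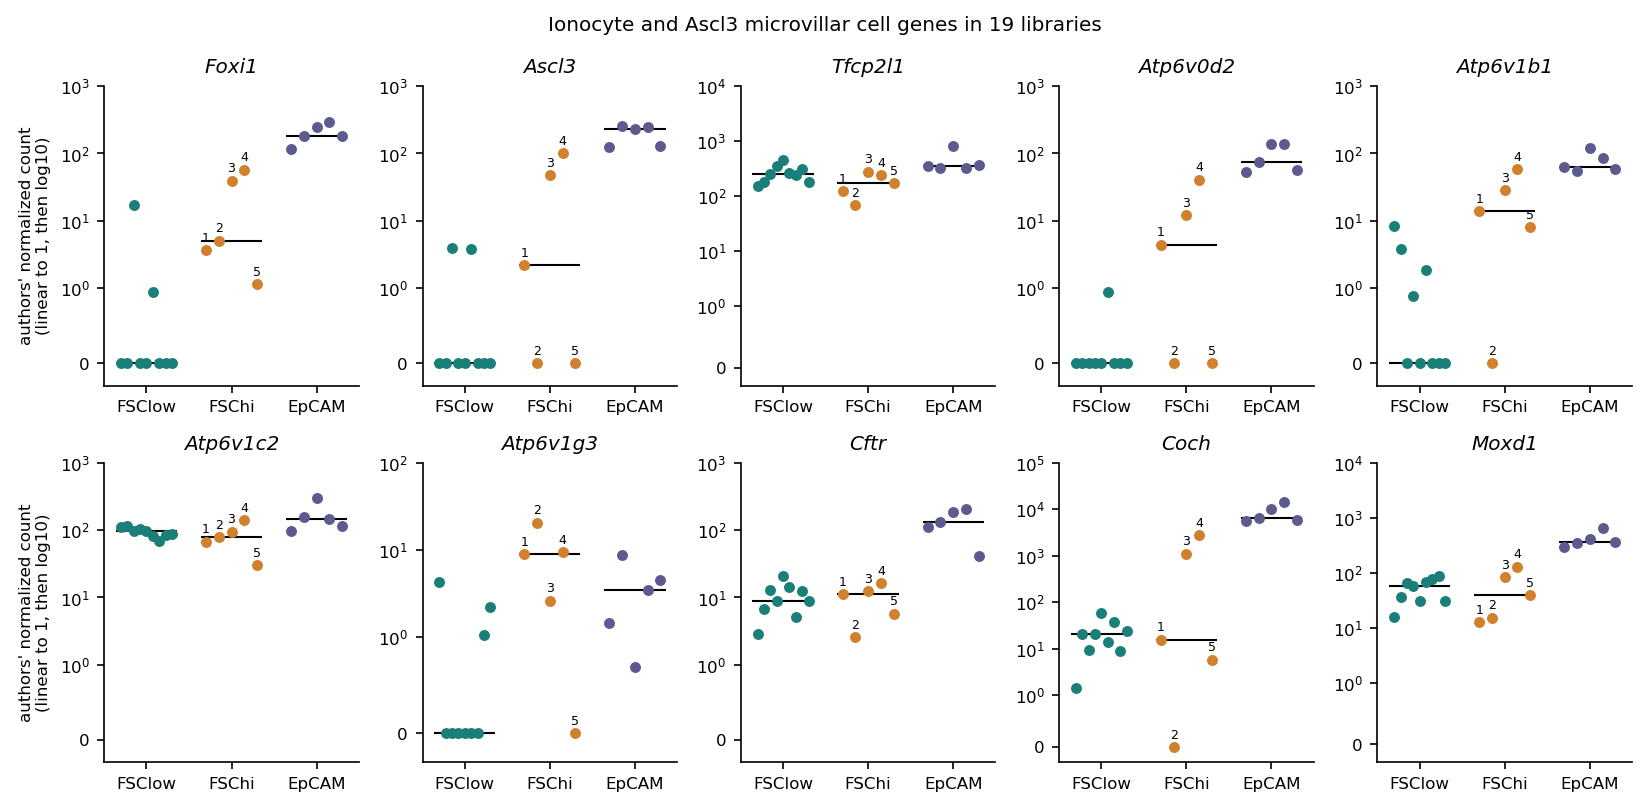
Authors' normalized counts of the 10 genes in each library (vertical axes linear from 0 to 1 and log10 above), with a bar at the group median. FSClow has 9, FSChi 5 (numbered points) and EpCAM 5 libraries. Foxi1, Ascl3 and Atp6v0d2 are at 0 in most FSClow libraries, Coch is between 1.42 and 59.7 there, and all 4 are high in EpCAM and, within FSChi, highest in libraries 3 and 4.

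Levels are given as the authors' normalized counts, each a read count divided by the size factor of its library. Fold changes come from edgeR's quasi-likelihood test on the raw counts of all 19 libraries, with Benjamini-Hochberg adjustment over 13340 tested genes, and a gene is called higher or lower at an adjusted p under 0.05. In a bulk sample, fewer cells of a type and less RNA per cell cannot be told apart. This holds for every level below.

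Foxi1 (Entrez 14233, chr11:34204341-34208089) encodes the forkhead master factor of ionocytes. Its normalized count was lowest at 0, had a median of 0 and reached 17.0 in the 9 FSClow libraries. In the 5 FSChi libraries it was 3.69, 5.10, 39.6, 57.8 and 1.16, in the order 1 to 5. In EpCAM it was 118, 183, 250.2, 294 and 184. Every EpCAM library was above every eGFP+ library, and FSChi 3 and 4 stood above the other FSChi libraries, which overlapped with FSClow. Of the 14 FSClow reads, 13 were in FSClow 3.

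Foxi1 fell by 6.66 ± 0.88 (log2, SE) in FSClow against EpCAM (edgeR adjusted p = 2.2e-06). Without FSClow 3, where 1 read was left in FSClow, the change was -9.68. It fell by 2.99 ± 0.83 in FSChi against EpCAM (edgeR adjusted p = 0.011) and by 5.87 without FSChi 3 and 4. FSChi against FSClow it rose by 3.68 ± 0.92 (edgeR adjusted p = 0.0057), but by 0.86 without those libraries (edgeR adjusted p = 0.68), and by 6.70 without FSClow 3. The call in FSChi against EpCAM was lost with DESeq2 (adjusted p = 0.076).

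Ascl3 (Entrez 56787, chr7:109727465-109731732) encodes a basic helix-loop-helix factor that marks both ionocytes and the microvillar cells named after it. Its normalized count was 0 in 7 of the 9 FSClow libraries, so lowest and median were 0, and the highest was 3.93. FSChi 1 to 5 had 2.22, 0, 47.4, 101 and 0. EpCAM 1 to 5 had 124, 254, 233, 249.997 and 129. EpCAM did not overlap with either eGFP+ group, and in FSChi the gene was almost confined to libraries 3 and 4, which held the 2 highest values of the eGFP+ groups.

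Ascl3 fell by 7.58 ± 0.97 in FSClow against EpCAM (edgeR adjusted p = 1.5e-06), with 7 reads in all FSClow libraries and 1496 in EpCAM. By reads scaled to library size EpCAM was 218 times FSClow (95% interval 105 to 542, counting error only), and 346 times without FSClow 3 or 442 times without FSClow 6. In FSChi against EpCAM the fall of 2.45 ± 0.82 passed the test (edgeR adjusted p = 0.032), but the call was lost without any 1 of FSChi 1, FSChi 2 or EpCAM 2, 3 or 4 (adjusted p between 0.052 and 0.062). Nor was it called by DESeq2 (adjusted p = 0.19), with expected counts (0.060), without the filter (0.070) or in a fit of the 2 groups alone (0.10). The log2 fold change was -3.60 without FSChi 4 (adjusted p = 0.0031), -7.22 without FSChi 3 and 4 (3.6e-06) and -6.72 with matched libraries only (0.00070). FSChi exceeded FSClow by 5.13 ± 1.01 (edgeR adjusted p = 0.00077), by 4.06 without FSChi 4 and by 0.43 without FSChi 3 and 4 (edgeR adjusted p = 0.85).

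Tfcp2l1 (Entrez 81879, chr1:118627923-118685168) encodes a grainyhead-type factor that in kidney shapes the intercalated cells. It differed from the other factors in being well expressed by eGFP+ cells: its normalized count in FSClow was lowest at 154, with a median of 247 and a highest value of 460. The 5 FSChi libraries, in order, had 123, 68.9, 279, 239 and 171. The 5 EpCAM libraries, in order, had 351, 329, 820 (819.7 before rounding), 318 and 375. FSClow overlapped with both other groups, and FSChi lay below EpCAM with no overlap.

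In FSClow against EpCAM, Tfcp2l1 had a log2 fold change of -0.50 ± 0.28 (edgeR adjusted p = 0.16, 95% interval -1.05 to 0.06), which became a call without FSClow 5 (adjusted p = 0.038). In FSChi against EpCAM it fell by 1.14 ± 0.33 (edgeR adjusted p = 0.013), a call that was lost without EpCAM 3 (adjusted p = 0.053). FSChi against FSClow gave -0.65 ± 0.30 (edgeR adjusted p = 0.12), and -1.14 without FSChi 3 and 4 (adjusted p = 0.025).

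Atp6v0d2 (Entrez 242341, chr4:19876838-19922566) encodes the d2 subunit of the V0 sector, known from osteoclasts, kidney and epididymis. A single read was found in the 9 FSClow libraries, in FSClow 6, so lowest and median were 0 and the highest was 0.947. In FSChi 1 to 5 the normalized count was 4.43, 0, 12.1, 41.0 and 0. EpCAM libraries 1 to 5 gave 53.5, 73.6, 139, 138 and 56.4. EpCAM stood above both eGFP+ groups without overlap, and 3 of the 5 FSChi libraries stood above FSClow while 2 had no read.

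With 714 reads in EpCAM and 1 in FSClow, Atp6v0d2 was 727 times higher in EpCAM per scaled read (95% interval 130 to 28744, counting error only). Without FSClow 6 no FSClow read was left, and EpCAM was at least 211-fold higher against a floor of 3 reads over the group. The fitted log2 fold change of -8.58 ± 0.86 (edgeR adjusted p = 1.7e-08) depends on the prior count at such low numbers, and was -9.70 without FSClow 6. In FSChi the gene fell by 2.70 ± 0.66 against EpCAM (edgeR adjusted p = 0.0038). The log2 fold change was -3.99 without FSChi 4 and -5.26 without FSChi 3 and 4. It rose by 5.88 ± 0.96 against FSClow (edgeR adjusted p = 6.8e-05), by 7.01 without FSClow 6 and by 4.65 without FSChi 4. It was the 1 gene of the 9 that was still called higher without FSChi 3 and 4 (3.33, edgeR adjusted p = 0.026). That call rests on 6 reads in FSChi 1 alone, since FSChi 2 and 5 had no read.

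Atp6v1b1 (Entrez 110935, chr6:83743017-83758855) encodes the B1 subunit of the V1 sector, whose loss causes renal tubular acidosis with deafness. Its normalized count in FSClow had a lowest value and a median of 0 and a highest of 8.54, in FSClow 1. FSChi libraries 1 to 5 gave 14.04, 0, 28.4, 58.4 and 8.10. In EpCAM 1 to 5 it was 62.7, 54.5, 119, 85.3 and 58.9. FSClow lay below EpCAM, whereas FSChi 4 reached the EpCAM range.

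Atp6v1b1 fell by 5.32 ± 0.73 in FSClow against EpCAM (edgeR adjusted p = 1.6e-06), and by 6.11 without FSClow 1. The difference of FSChi from EpCAM was -1.56 ± 0.69 and missed the threshold (edgeR adjusted p = 0.098), but it was called without FSChi 4 (-2.31, adjusted p = 0.025) and without FSChi 3 and 4 (-3.01, 0.016). FSChi exceeded FSClow by 3.76 ± 0.74 (edgeR adjusted p = 0.00055), by 4.55 without FSClow 1 and by 3.09 without FSChi 4. Without FSChi 3 and 4 the difference was 2.38 (adjusted p = 0.056).

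Atp6v1c2 (Entrez 68775, chr12:17284721-17325386) encodes the C2 subunit of the V1 sector and, unlike Atp6v0d2 and Atp6v1b1, was well expressed in FSClow. Its normalized count in FSClow ran from a lowest 67.9 through a median of 96.9 to a highest 113. In FSChi 1 to 5 it was 67.2, 79.1, 93.9, 140 and 30.1. EpCAM 1 to 5 had 97.0, 158, 296, 145 and 116. All 3 groups overlapped, and the annotated span of the gene touches that of Pdia6, whose reads may not be separable.

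Atp6v1c2 was not called in any comparison of the fit. Its log2 fold change was -0.55 ± 0.27 in FSClow against EpCAM (edgeR adjusted p = 0.10), -0.81 ± 0.32 in FSChi against EpCAM (edgeR adjusted p = 0.062) and -0.26 ± 0.28 in FSChi against FSClow (edgeR adjusted p = 0.55, 95% interval -0.81 to 0.30). The call changed with the setting. In FSClow against EpCAM it was lower with relative log expression scaling (adjusted p = 0.031), in DESeq2 (0.027), in a fit of the 2 groups alone (0.032), with matched libraries only (0.019), and without FSChi 4, FSChi 5 or EpCAM 1. In FSChi against EpCAM it was lower with relative log expression scaling (0.034), in DESeq2 (0.023), and without FSChi 3 and 4 (-1.34, 0.011), FSChi 4 (0.012), EpCAM 1, FSClow 2 or FSClow 7.

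Atp6v1g3 (Entrez 338375, chr1:138273738-138289462) encodes the G3 subunit, known as a kidney form. It was the 1 listed gene that failed the filter on low counts: 2 libraries, FSChi 2 and FSChi 4, passed the minimum of 2.77 CPM (reads per library scaled to the same total), and 5 were needed. Its normalized count was lowest at 0, had a median of 0 and reached 4.27 in FSClow. FSChi 1 to 5 had 8.87, 20.4, 2.58, 9.32 and 0, and in EpCAM 1 to 5 it was 1.43, 8.66, 0.689, 3.46 and 4.53. The groups overlapped in every pairing, and unlike the other listed pump genes it was highest in FSChi 2. In a fit without the filter it was higher in FSChi than in FSClow by 3.11 ± 0.97 (edgeR adjusted p = 0.027), with adjusted p = 0.12 and 0.48 for FSClow and FSChi against EpCAM.

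Cftr (Entrez 12638, chr6:18170687-18322770) encodes the chloride and bicarbonate channel that is lost in cystic fibrosis and that ionocytes carry at high levels. Its normalized count in FSClow was lowest at 2.85, with a median of 8.96 and a highest value of 20.6. The 5 FSChi libraries, in order, had 11.1, 2.55, 12.5, 16.1 and 5.78. The 5 EpCAM libraries, in order, had 110 (109.8 before rounding), 132, 183, 204 and 41.3. All EpCAM libraries were above all eGFP+ libraries, and FSChi and FSClow covered the same range.

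Cftr too was highest within FSChi in libraries 3 and 4, at 9.3% and 12.0% of the EpCAM mean. In contrast to Foxi1 and Ascl3, Cftr stood little above FSChi 1 there, which was at 8.3%. It fell by 3.43 ± 0.37 in FSClow against EpCAM (edgeR adjusted p = 5.8e-08) and had a log2 fold change of -3.49 ± 0.46 in FSChi against EpCAM (edgeR adjusted p = 3.9e-06). The difference between FSChi and FSClow was -0.06 ± 0.42 (edgeR adjusted p = 0.94), with a 95% interval from -0.89 to 0.76, and its sign changed with relative log expression scaling.

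Coch (Entrez 12810, chr12:51593283-51606619) encodes cochlin, a secreted matrix protein best known from the inner ear. Its normalized count in FSClow was lowest at 1.42, with a median of 20.5 and a highest value of 59.7. FSChi libraries 1 to 5 gave 15.5, 0, 1103, 2771 and 5.78. EpCAM libraries 1 to 5 gave 5436, 6449, 10241, 14046 and 5914. EpCAM lay far above both eGFP+ groups, FSChi 3 and 4 lay between, and the other FSChi libraries were within or below the FSClow range.

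Coch fell by 8.38 ± 1.26 in FSClow against EpCAM (edgeR adjusted p = 3.0e-05). In FSChi against EpCAM the log2 fold change was -3.29 ± 1.29 and was not called (edgeR adjusted p = 0.071), although the groups did not overlap. It was called there without FSChi 4 (-4.78, adjusted p = 0.019), in DESeq2 (adjusted p = 0.021), and without FSChi 3 and 4 (-9.76). FSChi exceeded FSClow by 5.09 ± 1.13 (edgeR adjusted p = 0.0031), by 3.68 without FSChi 4, and the sign turned without FSChi 3 and 4 (-1.31, adjusted p = 0.22).

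Moxd1 (Entrez 59012, chr10:24223517-24302783) encodes a copper monooxygenase related to dopamine beta-hydroxylase. Its normalized count in FSClow was lowest at 15.7, with a median of 58.2 and a highest value of 85.7. In FSChi 1 to 5 it was 12.6, 15.3, 83.6, 129 and 39.3. In EpCAM 1 to 5 it was 294, 350 (349.7 before rounding), 402, 636 and 354. EpCAM did not overlap with the eGFP+ groups, and FSChi overlapped with FSClow on both sides.

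Moxd1 fell by 2.73 ± 0.40 in FSClow (edgeR adjusted p = 4.9e-06) and by 2.65 ± 0.49 in FSChi (edgeR adjusted p = 0.00029), each against EpCAM. Without FSChi 3 and 4 the FSChi value was -4.05, and with matched libraries only it was -4.94. FSChi against FSClow gave 0.08 ± 0.42 (edgeR adjusted p = 0.92, 95% interval -0.74 to 0.90), -1.24 without FSChi 3 and 4 (adjusted p = 0.059) and -1.93, a call, with matched libraries only (adjusted p = 0.031). Of FSChi the matched set holds only libraries 1 and 2, which had its lowest values.

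Over the list, 7 of the 9 tested genes were lower and 0 higher in FSClow against EpCAM, where 23.1% of all tested genes were called lower and 22% higher. The median log2 fold change was -5.32 for the 9 genes and 0.05 for all genes. With relative log expression scaling the median of all genes moved by -0.19, and the split of all called genes changed from 2931 higher and 3086 lower to 2244 and 3627. In FSChi against EpCAM, 6 of 9 were lower and 0 higher, with 12.2% of all genes called lower and 13.5% higher, and the medians were -2.65 and -0.02. In FSChi against FSClow, 5 of 9 were higher and 0 lower, with 15.5% of all genes called higher and 9.3% lower, and the medians were 3.68 and -0.01. The groups did not overlap for 7 of 9 genes in FSClow against EpCAM and for 7 of 9 in FSChi against EpCAM, all lower, against 18.2% and 13.4% of all genes. FSChi and FSClow overlapped for all 9, where 4.63% of all genes were higher in FSChi without overlap. The comparisons share their libraries and are no independent support for each other. Foxi1, Ascl3, Atp6v0d2 and Atp6v1b1 passed the filter on low counts only through the EpCAM libraries where they are high. The counts over the list, and the p-values of these genes, therefore describe the list and are not support for its direction.

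**Figure D2:**
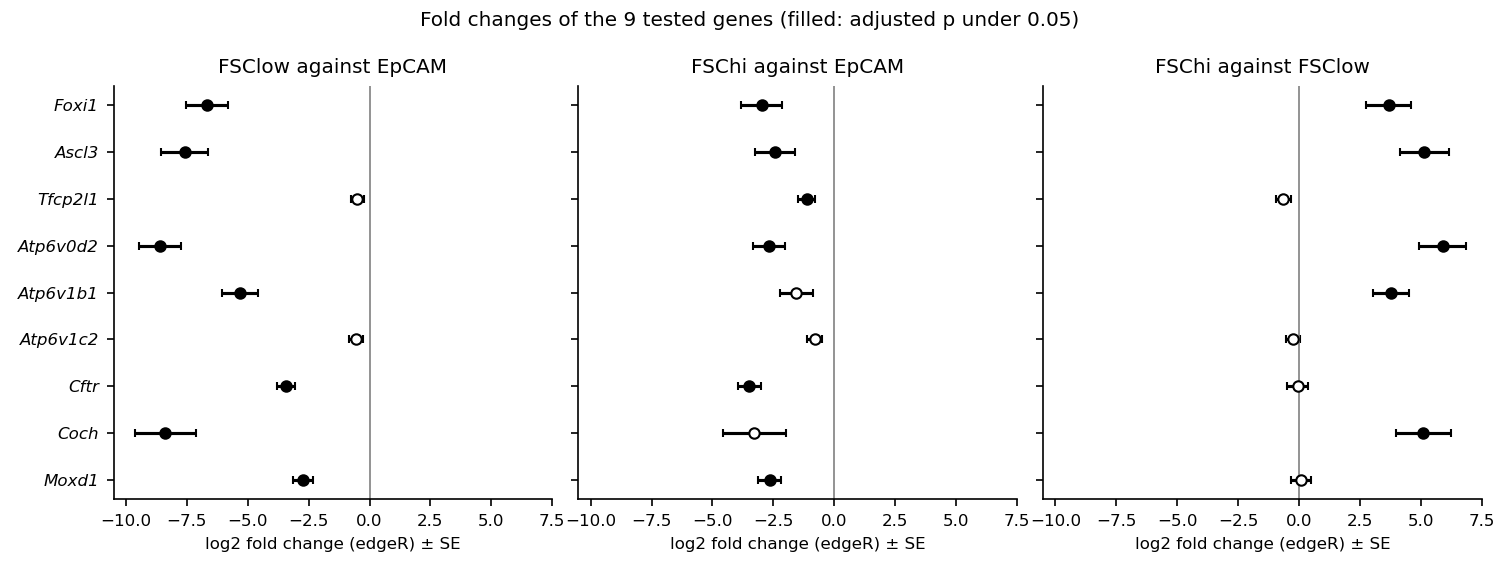
Log2 fold changes of the 9 tested genes with their SE (edgeR) in the 3 comparisons, filled where the adjusted p was under 0.05. The first panel has 7 filled points to the left of 0, the second 6, and the third has 5 filled points to the right, between 3.68 and 5.88.

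The 5 genes that rose in FSChi against FSClow were all highest in FSChi 3 and FSChi 4, as was every other tested gene within FSChi. Without both, Foxi1, Ascl3, Coch and Atp6v1b1 lost the call and Atp6v0d2 kept it. The kept call rests on 6 reads in FSChi 1, since FSChi 2 and 5 had none. As a share of the EpCAM mean, Foxi1 was at 19.3% and 28.1% in these libraries, Ascl3 at 23.9% and 51.1%, Atp6v0d2 at 13.1% and 44.5%, Atp6v1b1 at 37.3% and 76.7%, and Coch at 13.1% and 32.9%. The median over the listed genes was 20.5% and 44.5% there, against 4.8%, 1.9% and 4.3% in FSChi 1, 2 and 5. Leaving out FSChi 3 and 4 lowers every tested gene in FSChi by construction, since each was highest there. With both left out, 9 of 9 genes were lower in FSChi than in EpCAM, with 11.7% of all genes called lower. In FSChi against FSClow 1 gene was then higher, Atp6v0d2, and 1 lower, Tfcp2l1 (13.1% and 5.31% of all genes). The matched libraries leave out FSChi 3 and 4 as well, and hold 2 FSChi and 3 EpCAM libraries. With only libraries whose column matched its own file, 8 of 9 were lower in FSClow and 7 of 9 lower in FSChi against EpCAM (21.8% and 5.57% of all genes). FSChi against FSClow then gave 1 higher and 2 lower (9.38% and 2.98%).

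Markers of other epithelial cells moved in part with these libraries. The sustentacular list stood at a median of 15.5% and 63.8% of its EpCAM mean in FSChi 3 and 4 and at 9.96%, 0.72% and 31.5% in FSChi 1, 2 and 5. Secretory and gland markers stood at 6.5% and 48.6% in FSChi 3 and 4, and at 2.5%, 0.5% and 5.1% in the others. Summed instead of taken as a median, they had another order. They were at 41.1%, 3.6%, 14.4%, 66.8% and 71.0% of the EpCAM mean in FSChi 1 to 5. Ciliated markers were highest in FSChi 1 (66.8%) and FSChi 4 (51.0%), olfactory neuron markers in FSChi 4 (68.6%) and FSChi 1 (65.6%), and basal markers in FSChi 1 (24.9%) and FSChi 5 (24.4%). In FSChi 3 the ciliated, olfactory neuron and basal lists stood at 20.8%, 30.0% and 1.55%, and the basal list was at 12.9% in FSChi 4. Of the leukocyte list only the lysozyme gene Lyz1, whose reads may not be separable from those of its paralog Lyz2, was abundant enough in EpCAM to give a share, which was 8.7% and 31.7% in FSChi 3 and 4 and 1.2%, 0.40% and 0.24% in FSChi 1, 2 and 5. FSChi 1 and 5 thus carried several lists of other cells at levels above those of the listed genes, whose median was 4.8% and 4.3% there. All 8 sustentacular, 10 olfactory neuron, 8 basal and 8 ciliated markers had a read in FSChi 3 and in FSChi 4, and no gene of these lists was at 0 throughout FSChi. In FSClow, the summed sustentacular markers ran from 803 to 1846 and in EpCAM from 8098 to 22360 normalized counts. The part of these cells in the levels of the listed genes was not tested.

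**Figure D3:**
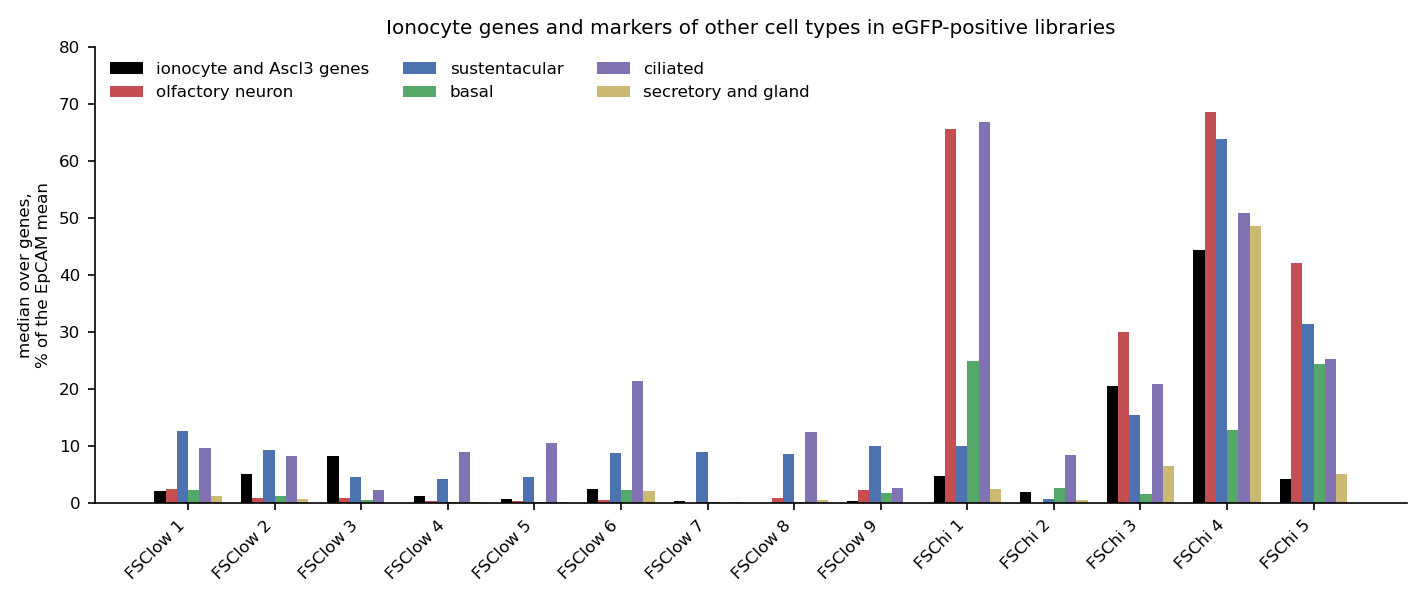
Median over the genes of each list of their level as a percentage of the EpCAM mean, in the 9 FSClow and 5 FSChi libraries (bars start at 0, genes with an EpCAM mean of at least 10 normalized counts). The ionocyte and Ascl3 list (black) is highest in FSChi 4 (44.5%) and FSChi 3 (20.5%), while other lists are also high in FSChi 1 and FSChi 5.

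Levels between genes were compared per length, as the deposited TPM of the single-library files, for which FSChi has 4 usable files. In EpCAM, Coch led the list by far with 1449 ± 615 TPM (SD, n = 5), followed by Ascl3 with 166 ± 49.3. Atp6v1c2 (54.2 ± 18.3), Moxd1 (52.3 ± 16.5) and Foxi1 (40.1 ± 12.9) formed a middle range and did not differ beyond their spread. Atp6v1b1 (21.6 ± 9.18), Tfcp2l1 (19.5 ± 10.4) and Atp6v0d2 (15.6 ± 7.23) overlapped as well, and Cftr (8.50 ± 4.17) and Atp6v1g3 (0.428 ± 0.382) were lowest. In FSClow the order was another one: Atp6v1c2 (37.5 ± 14.3 TPM, n = 9) and Tfcp2l1 (14.2 ± 7.17) came first. Foxi1, Ascl3, Cftr, Atp6v0d2, Atp6v1b1 and Atp6v1g3 each had a mean under 1 TPM there. In FSChi, Coch again had the highest mean, 174 ± 229 TPM over 4 files, with a spread larger than the mean. The files FSChi 4 and FSChi 5, which resemble columns 3 and 4, had 211 and 483 TPM, and files FSChi 1 and 2 had 2.09 and 0.

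Restricted and widespread forms of a V-ATPase subunit could be set side by side on the TPM scale. Atp6v1b1 made up 22.3% ± 9.25 (SD, n = 5) of the summed TPM of Atp6v1b1 and Atp6v1b2 in EpCAM, 1.03% ± 1.98 in FSClow (n = 9) and 9.33% ± 6.71 in FSChi (n = 4). Atp6v0d2 made up 29.1% ± 9.13 of its pair with Atp6v0d1 in EpCAM, 0.067% ± 0.20 in FSClow and 4.78% ± 6.02 in FSChi. In the files FSChi 1 and 2 alone, Atp6v1b1 made up 14.1% and 0% and Atp6v0d2 1.67% and 0%. The pair of C subunits differed from these, since Atp6v1c2 made up 51.8% ± 11.6 in EpCAM and still 31.9% ± 12.0 in FSClow and 28.4% ± 8.22 in FSChi (20.8% and 22.0% in files 1 and 2). Atp6v1g3 made up at most 1.003% of its pair with Atp6v1g1 in any file.

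**Figure D4:**
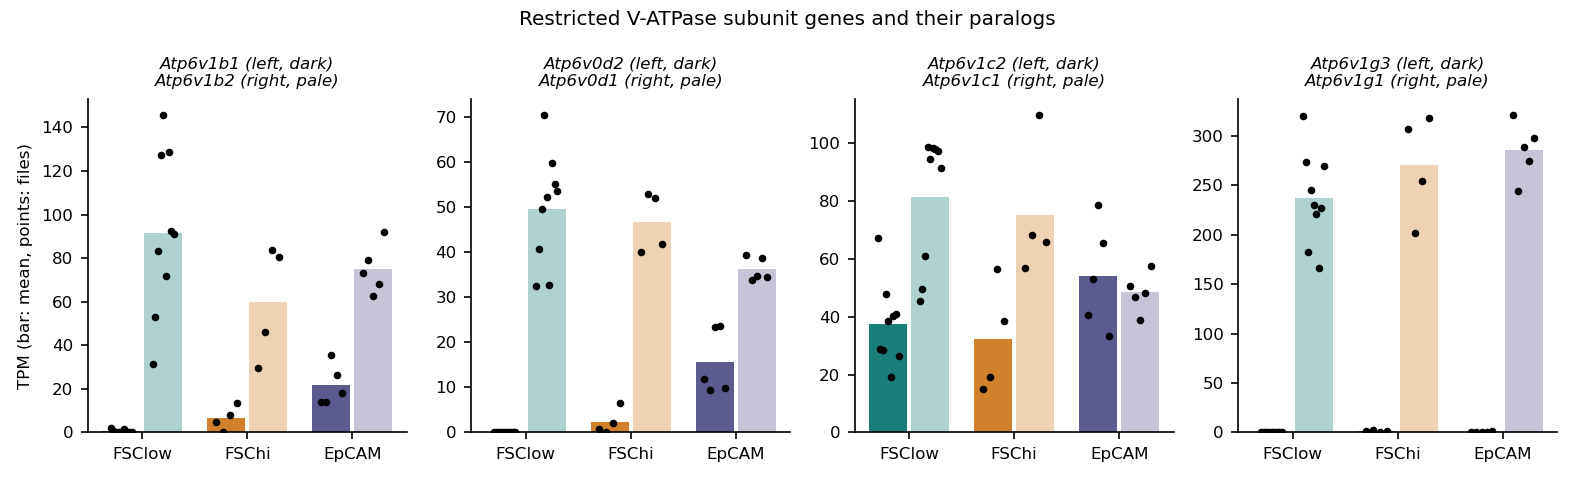
TPM of each restricted V-ATPase subunit gene (dark) and its widespread paralog (pale), as bars for the mean from 0 and points for single files (9 FSClow, 4 FSChi, 5 EpCAM). Atp6v1b1 and Atp6v0d2 are visible in EpCAM (21.6 and 15.6 TPM) and near 0 in FSClow, while Atp6v1c2 is present in all groups.

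The widespread paralogs did not follow the listed genes. Atp6v1b2 had log2 fold changes of -0.06 ± 0.24 and -0.16 ± 0.28 in FSClow and FSChi against EpCAM, with edgeR adjusted p of 0.86 and 0.73. Atp6v0d1 rose by 0.48 ± 0.16 and 0.64 ± 0.18 (edgeR adjusted p = 0.019 and 0.013), and Atp6v1c1 rose by 0.66 ± 0.17 and 0.82 ± 0.19 (edgeR adjusted p = 0.0026 and 0.0024). Atp6v1g1 was not called in either (edgeR adjusted p = 0.36 and 0.94). The difference between a restricted gene and its paralog was not tested.

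The lists that follow are read against the shares of all genes called, which were 23.1% lower and 22% higher in FSClow against EpCAM, 12.2% and 13.5% in FSChi against EpCAM, and 9.3% and 15.5% in FSChi against FSClow. Without FSChi 3 and 4 the shares were 11.7% lower and 10.8% higher in FSChi against EpCAM. In FSChi against FSClow they were then 5.31% lower and 13.1% higher. Among the other V1 subunit genes, 2 of 9 tested were higher and 1 lower in FSClow against EpCAM, 3 higher and 0 lower in FSChi against EpCAM, and 1 higher and 0 lower in FSChi against FSClow. The list's medians were -0.06, 0.32 and 0.22. Without FSChi 3 and 4, 3 were higher and 0 lower in FSChi against EpCAM, and 2 higher and 0 lower in FSChi against FSClow. Atp6v1a, which carries the catalytic site, fell by 0.91 ± 0.25 in FSClow (edgeR adjusted p = 0.0046), and Atp6v1e1, a stalk subunit, rose by 0.74 ± 0.23 in FSChi (edgeR adjusted p = 0.020), each against EpCAM. Atp6v1h and Atp6v1d were not called in any comparison.

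Among 11 other V0 and accessory genes, 4 were higher and 3 lower in FSClow against EpCAM, 3 higher and 1 lower in FSChi against EpCAM, and 4 higher and 0 lower in FSChi against FSClow. The medians were -0.14, 0.26 and 0.26. Without FSChi 3 and 4, 3 were higher and 1 lower in FSChi against EpCAM, and 3 higher and 0 lower in FSChi against FSClow. Atp6ap1, an accessory subunit, rose by 0.80 ± 0.16 in FSClow and by 0.74 ± 0.17 in FSChi, and the proteolipid gene Atp6v0b by 0.65 ± 0.18 and 0.81 ± 0.20 (edgeR adjusted p at most 0.0043). Atp6v0e2 had a log2 fold change of -1.93 ± 0.24 in FSClow (edgeR adjusted p = 3.7e-07). Atp6v0a4, the a4 subunit of kidney intercalated cells, was singled out after its values were seen: it fell by 6.36 ± 0.58 in FSClow (edgeR adjusted p = 4.1e-09) and by 2.59 ± 0.55 in FSChi (edgeR adjusted p = 0.0011). It held 28.5% ± 8.99 of the TPM of its pair with Atp6v0a1 in EpCAM, 0.92% ± 2.57 in FSClow and 4.87% ± 3.67 in FSChi. The restricted a4, B1 and d2 subunit genes were thus low in eGFP+ cells of low scatter. Of the other V0 and accessory genes, Atp6v0e2 and Tcirg1, the a3 subunit gene (-1.42 ± 0.39, edgeR adjusted p = 0.0045, named after its values were seen), were also called lower there.

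Ion transport genes linked to ionocytes were listed separately (19 genes, 11 tested). Of these, 9 were lower and 1 higher in FSClow against EpCAM, 8 lower and 1 higher in FSChi against EpCAM, and 8 higher and 0 lower in FSChi against FSClow, with medians of -5.79, -2.87 and 2.87. In FSChi 1 to 5 the median of this list was 10.3%, 1.0%, 16.5%, 36.6% and 9.8% of its EpCAM mean, so it too was highest in FSChi 3 and 4. Without both, 12 genes were tested, of which 8 were lower and 1 higher in FSChi against EpCAM, and 5 higher and 0 lower in FSChi against FSClow (medians -3.65 and 0.73). Car12, a carbonic anhydrase at the cell surface, fell by 7.08 ± 0.63 in FSClow and by 4.21 ± 0.65 in FSChi (edgeR adjusted p = 5.0e-09 and 4.1e-05). Kcnj16, a potassium channel, fell by 7.01 ± 0.66 and 2.70 ± 0.61 (edgeR adjusted p = 9.6e-09 and 0.0021). The carbonic anhydrase gene Car2 and the sodium, potassium and chloride cotransporter gene Slc12a2 were lower in both as well, and neither was called in FSChi against FSClow. Car2 varied widely in the EpCAM files, from 6.86 to 241 TPM. Its lowest EpCAM value lay below the highest in FSClow (8.69) and in FSChi (12.7). The 1 gene of this list that rose in both eGFP+ groups was the potassium channel gene Kcnq1, by 1.68 and 2.95 (edgeR adjusted p = 9.4e-05 and 7.1e-07), named after its values were seen.

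Further markers of ionocytes and microvillar cells (18 genes, 13 tested) were mixed: 8 lower and 2 higher in FSClow against EpCAM, 6 lower and 3 higher in FSChi against EpCAM, and 4 higher and 2 lower in FSChi against FSClow. The medians were -1.68, -1.12 and -0.16. Without FSChi 3 and 4, 15 genes were tested, of which 8 were lower and 4 higher in FSChi against EpCAM, and 1 lower and 4 higher in FSChi against FSClow. Hepacam2, a cell adhesion gene found in ionocytes and in tuft cells, had a median normalized count of 2940 in FSClow (lowest 1929, highest 3401), against 122 to 294 in EpCAM. It rose by 3.997 ± 0.27 in FSClow and 3.64 ± 0.27 in FSChi (edgeR adjusted p = 2.7e-11 and 4.3e-10), opposite to the listed genes. The Notch target Hey1 fell by 5.41 ± 0.65 and 2.31 ± 0.67 (edgeR adjusted p = 5.5e-07 and 0.014). Notch1 had log2 fold changes of -1.76 ± 0.32 and -2.42 ± 0.39, and the adaptor gene Stap1 of -1.77 ± 0.32 and -1.93 ± 0.38 (edgeR adjusted p at most 0.00057). Ezr, which links the membrane of microvilli to actin, was not called in any comparison.

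The genes most like the list were sought by Pearson's r of log2 CPM (prior count 2) over the 19 libraries with the mean standardized profile of the 9 tested genes, among 11612 genes. Among the closest 8 that were not listed were Scnn1b (r = 0.969), Cdcp3 (0.955), Smbd1 (0.955), Nhlh2 (0.947), Actr1b (0.944), Lpcat2 (0.942) and Cd81 (0.942). Scnn1b encodes a subunit of the epithelial sodium channel, and its normalized count was at most 1.15 in FSClow, 0.739, 0, 14.6, 47.8 and 0 in FSChi 1 to 5, and 82.0 to 276 in EpCAM. The listed genes themselves, whose own values enter the profile, ranged from Coch (0.966), Ascl3 (0.962) and Atp6v0d2 (0.959) to Atp6v1c2 (0.647) and Tfcp2l1 (0.632). These values describe a likeness that the difference between groups shapes, since all libraries share the same 3 sorts.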

How the data were processed

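RNA was measured in 19 libraries of sorted nasal cells. The submitters' processing notes name featureCounts, DESeq2, RSEM 1.2.21, Picard 1.1073, STAR 2.4.2a and the build mm10, without their roles. All tests used the raw counts that the authors deposited for 27179 Entrez identifiers. They also deposited a normalized table, a signal in which counts were scaled by 1 size factor per library. Multiplied back, 100% of its values were whole within 0.01, and each of its 26221 rows was found in the count table. Single-library files, as deposited, give expected counts, rounded here before use, and TPM, per the file headers. The FSChi 3 file held only 6807 expected counts and was left out, so expected-count and TPM values of FSChi have n = 4. Whether counting used strand is not given in the sources used here.

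Symbols came from RefSeq (25275 identifiers) or from identical rows of the normalized table (580). Coordinates are RefSeq GRCm38.p6 (mm10), 1-based, and promoter windows were found for 9 of the 10 genes. Counts were filtered with filterByExpr by group, scaled by TMM and fitted with edgeR 4.0.16 (R 4.3.3), with robust quasi-likelihood dispersion, all 19 libraries and no term but group. SE were derived from the F statistic. The 95% intervals of log2 fold changes use these SE with a normal approximation, so they are somewhat narrower than the test of the fit implies. The code was tested on simulated data. Alternatives were relative log expression scaling, no filter, DESeq2 1.42.0, a replicate block, fits of 2 groups, leaving out each library, and expected counts. A further 3 were chosen after seeing the data: matched libraries only, without FSChi 3 and 4, and without FSClow 3 and 6. The genes and lists were chosen with earlier results of these data known. All 10 genes are named. Of each other list the text names up to 5 with the highest mean CPM in EpCAM and direct paralogs, and exceptions are marked. For likeness, the 8 closest unlisted genes whose mean log2 CPM reached 1 are named, without predicted models. A gene that these rules take is not reported here.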

Additional observations from a re-analysis of the deposited data

Results flagged for a closer look

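In 4 of 30 groups of values (10 genes in 3 groups), 1 library lay far from the others of its group by Dixon's test, which chance alone flags in about 1 of 20 groups. That rate does not hold for groups whose reads are nearly all 0, such as Atp6v0d2 in FSClow, where any single read is flagged. Foxi1 had a normalized count of 17.0 in FSClow 3 against 0.947 in the next library. Atp6v0d2 had 0.947 in FSClow 6, a single read, against 0 in the other 8. Atp6v1b1 had 8.54 in FSClow 1 against 3.90 in the next. Tfcp2l1 had 820 (819.7 before rounding) in EpCAM 3 against 375 in the next.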

How the results depend on the processing

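Each comparison had 28 alternatives. Leaving out each library in turn gave 7 to 8 called genes of the list in FSClow against EpCAM, 4 to 9 in FSChi against EpCAM and 5 in FSChi against FSClow. Over all genes these ranges were 5430 to 6508, 2702 to 3572 and 2634 to 3498. In FSChi against FSClow, where 5 genes of the list and 3310 of all genes were called, the counts fell to 1 (of 5 then tested) and 2106 in a fit of the 2 groups alone, and to 3 (1 higher, 2 lower) and 1754 with only libraries whose column matched its file. Without FSChi 3 and 4, 2 genes of the list were called. With matched libraries, 1838 of all genes were called in FSChi against EpCAM, against 3421. In the fit of FSChi and FSClow alone, Foxi1, Ascl3, Atp6v0d2 and Atp6v1b1 did not pass the filter on low counts and were not tested, and Coch kept its call.

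Whether the replicate numbers pair the samples is not known. Same-numbered libraries correlated in their deviations between -0.19 and 0.17 (FSClow and EpCAM), -0.05 and 0.25 (FSChi and EpCAM) and -0.10 and 0.40 (FSChi and FSClow). Differently numbered libraries were not compared and some labels may be wrong, so these values cannot decide it. With the replicate block, 7, 6 and 2 genes of the list and 5179, 3271 and 1982 of all genes were called in the 3 comparisons. In FSChi against FSClow, Coch, Foxi1 and Atp6v1b1 were then not called (adjusted p = 0.36, 0.062 and 0.060).

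Reversed directions occurred only in FSChi against FSClow, among genes not called there and for Coch. Cftr was 0.011 with relative log expression scaling, 0.0060 in DESeq2, 0.35 with expected counts and 0.055 without FSClow 3 and 6, and ran from -0.25 to 0.20 when single libraries were left out. Moxd1 ran from -0.43 to 0.36 when single libraries were left out, and was -1.93 with matched libraries and -1.24 without FSChi 3 and 4. Coch was -1.07 with matched libraries and -1.31 without FSChi 3 and 4, and Atp6v1c2 was 0.028 with expected counts. The cause was not tested. Among the values for single genes, 692 kept their direction and side of the threshold, 21 lost and 23 gained a call, and 16 reversed. Low read numbers (1 for Atp6v0d2, 7 for Ascl3 and 14 for Foxi1 in FSClow) limit the size of the largest falls.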
